A study of Mus musculus with 6 samples.

Results

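The insulin receptor gene Insr and 7 genes of the proteins that bind it or act on it directly were examined in extensor digitorum longus (EDL), a fast-twitch muscle of the hindlimb. They were the docking substrates Irs1, Irs2 and Gab1, the adaptor Shc1, the inhibitory adaptors Grb10 and Grb14, and the phosphatase Ptpn1. The genes were chosen by symbol, with earlier results of these mice known, and all 8 were found among 24411 genes. RNA was from 3 mAktDKO mice (Mlc1f-Cre:Akt1/2-floxed) and 3 control floxed mice (Akt1/2-floxed, without Cre), all C57BL/6J and 50 weeks old. The methods describe male mice unless otherwise indicated. Cre was knocked in at Mlc1f, a gene used in muscle fibres. Akt1 and Akt2 in the other cells of the muscle were not measured apart from those of the fibres. The Cre allele was carried by the mAktDKO mice alone, so its own effect cannot be told apart from that of the loss of Akt. The labels give no batch.

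Insulin receptor is a tyrosine kinase of the cell surface. When insulin binds, it phosphorylates itself and docking proteins, and these recruit phosphatidylinositol 3-kinase, which leads to activation of Akt, the kinase that drives glucose uptake and protein synthesis in muscle. Inhibitory adaptors occupy the active receptor, and phosphatases remove its phosphates, so both limit the signal. Akt lies downstream of all 8 proteins and feeds back on some of their genes through forkhead (FoxO) transcription factors.

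Total counts per mouse ranged from 13738795 to 15445523, and 3 counts, taken as the floor of detection, correspond to 0.194 to 0.218 CPM (counts relative to the library total, scaled between mice by TMM in all that follows). The floor covers counting error only. All 8 genes lay well above it and passed the filter on low counts that left 12892 genes. The targeted genes were examined as a check of the labels. Akt2 was at 51.3, 49.1 and 52.7 CPM in mAktDKO mice 1 to 3 and at 172, 133 and 143 CPM in control mice 2 to 4 (log2 fold change -1.55, adjusted p = 0.000923 in edgeR's quasi-likelihood test). Akt1 was at 58.9, 56.8 and 51.4 CPM and at 66.4, 65.5 and 66.5 CPM (log2 fold change -0.25, adjusted p = 0.115 in the same edgeR test). The 9 fibre markers summed to between 221721 and 299685 CPM, and none was at 0. Control mouse 2 stood apart within its group. The chi-square of the counts per degree of freedom was 22 and 21.3 against control mice 3 and 4, and 6.25 to 12.1 for the other pairs of mice of 1 group. The log2 fold changes of Irs1, Grb10, Shc1, Gab1, Insr and Ptpn1 are therefore also given without it.

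**Figure D1:**
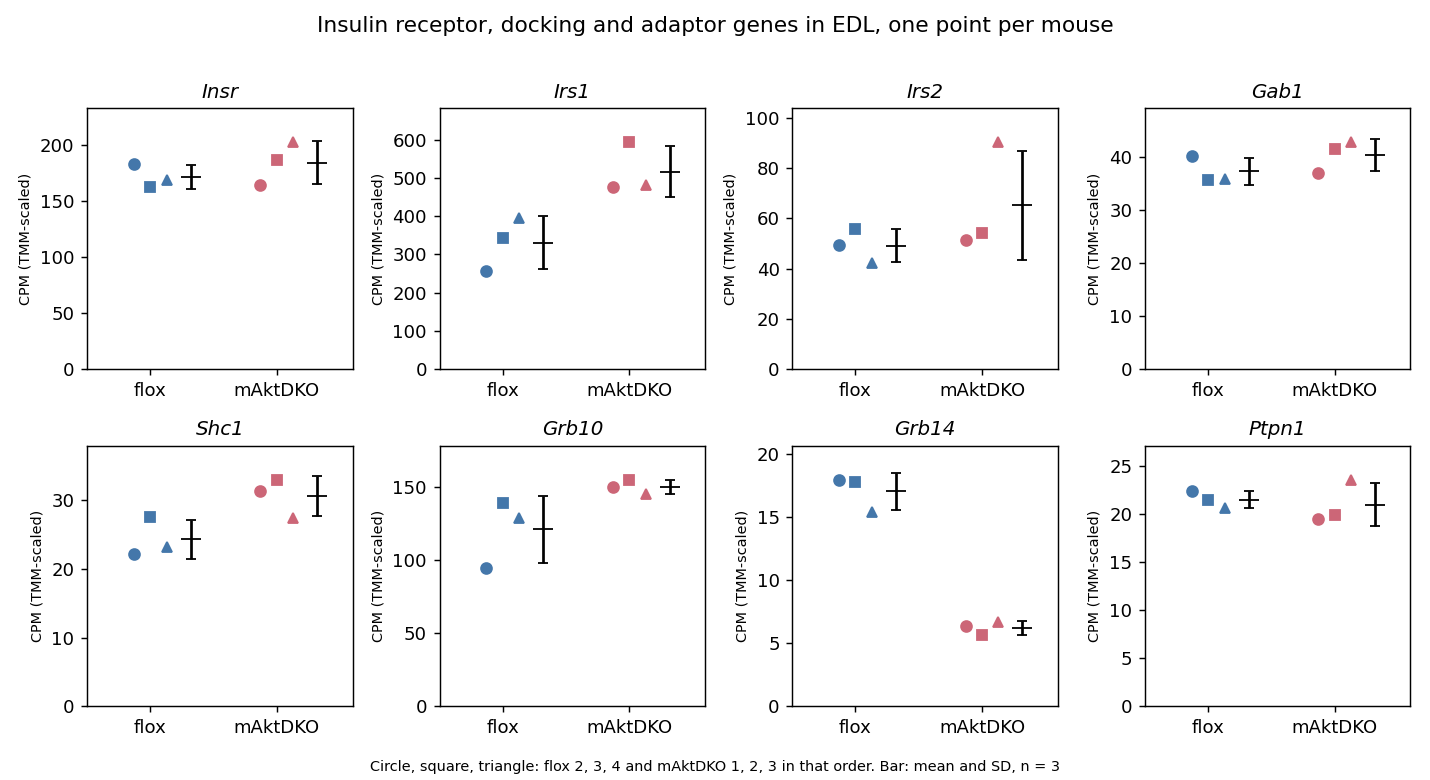
TMM-scaled CPM (y axis, from 0) of each of the 8 genes in 3 control floxed (flox, blue) and 3 mAktDKO mice (red), 1 point per mouse, with the mean and SD beside each group. Grb14 lies between 5.63 and 6.72 CPM in the mAktDKO mice and between 15.4 and 18.0 CPM in the control mice, Irs1 and Grb10 lie above all control values in all mAktDKO mice, and the groups of the other 5 genes overlap.

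Of the 8 genes, 6 were higher and 2 lower in the mAktDKO mice by the sign of the log2 fold change, with a median of 0.21 against 0.02 over all genes tested. In 3 of the 8 the mice of the groups did not overlap: Grb14 was lower, and Irs1 and Grb10 were higher, in every mAktDKO mouse. Over all genes tested, 31.1% did not overlap, 16.6% lower and 14.6% higher in the mAktDKO mice. At an adjusted p under 0.01 in edgeR's quasi-likelihood test, 1 of the 8, Grb14, was called. The background of this call is 3 of 12892 genes (0.0233%), namely Akt2, Aldh1a1 and Grb14. Because the 8 genes were chosen with this contrast in view, their values are given as a description, and no test is drawn from them. Fewer fibres and less RNA per fibre cannot be told apart in RNA of whole muscle.

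**Figure D2:**
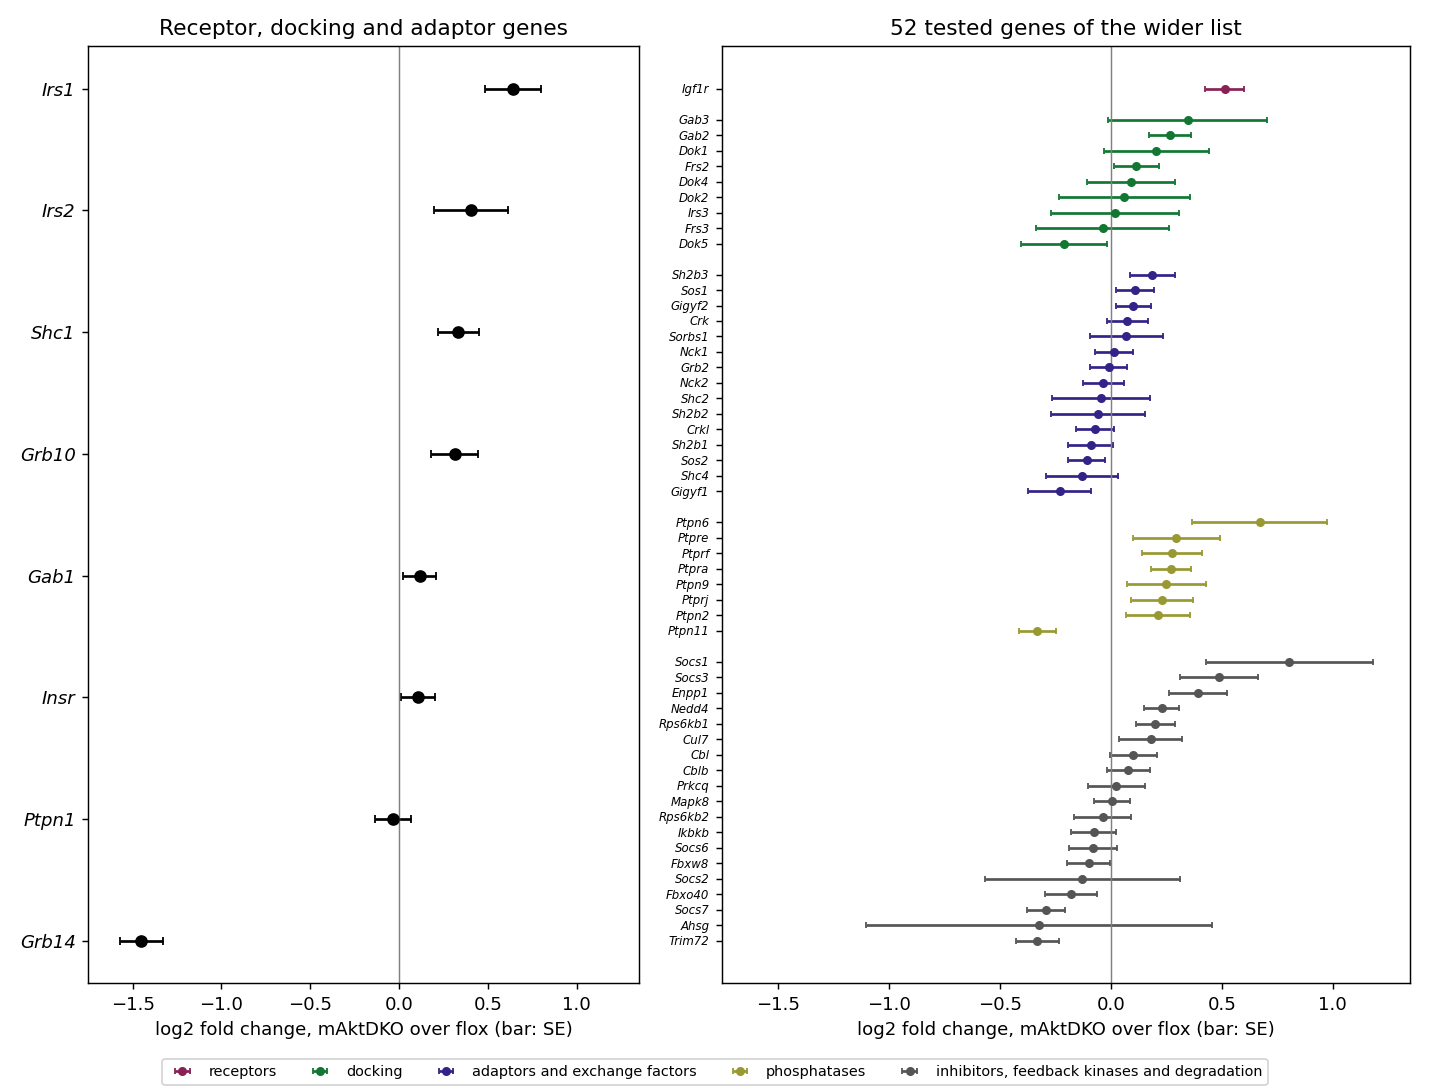
Log2 fold change of mAktDKO over control floxed mice (x axis, same scale in both panels, bars show the SE) for the 8 receptor, docking and adaptor genes (left) and for 52 tested genes of receptor-proximal insulin signalling, coloured by role (right). Grb14 at -1.45 lies farther from 0 than any gene of either panel, and the genes of the right panel lie between -0.33 and 0.80.

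Insr, the receptor itself, is on the minus strand of chromosome 8 (chr8:3122061-3279617 of mm10, GENCODE vM21, 23 exons after merging transcripts). It was at 164, 186 and 202 CPM in the mAktDKO mice and at 183, 162 and 168 CPM in the control mice. The groups overlapped, with the highest and lowest mAktDKO mouse on either side of most control mice. The means were 184 ± 19.0 and 171 ± 10.7 CPM (SD, n = 3 each), a log2 fold change of 0.10 (SE 0.097). This value was 0.02 without mAktDKO mouse 3, 0.18 without mAktDKO mouse 1, 0.155 without control mouse 2, 0.07 without control mouse 3 and 0.24 when scaled by library totals.

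The docking substrates come next in the pathway. Irs1, the main substrate that links the receptor to phosphatidylinositol 3-kinase in muscle, is on the minus strand of chromosome 1 (chr1:82233101-82291416, 2 exons). It was at 476, 594 and 481 CPM in the mAktDKO mice and at 256, 343 and 395 CPM in the control mice. Every mAktDKO mouse lay above every control mouse, and control mouse 2 was the lowest of all. The means were 517 ± 66.5 and 331 ± 70.2 CPM (SD, n = 3 each), a 1.56-fold difference (log2 fold change 0.64, SE 0.158). The log2 fold change became 0.49 (SE 0.12) when control mouse 2 was left out. The difference ranked 550th from the highest log2 fold change of all genes tested, and Irs1 was not called by edgeR but was by DESeq2, which called 3.09% of its 10625 genes.

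Irs2, a second substrate whose gene is a known FoxO target in liver, is on the minus strand of chromosome 8 (chr8:10984681-11008458, 2 exons). It was at 51.3, 54.0 and 90.3 CPM in the mAktDKO mice and at 49.2, 55.9 and 42.4 CPM in the control mice. The groups overlapped, and mAktDKO mouse 3 stood far above the other 5 mice. The means were 65.2 ± 21.8 and 49.2 ± 6.73 CPM (SD, n = 3 each), a log2 fold change of 0.41 (SE 0.207) that was 0.08 (SE 0.126) without mAktDKO mouse 3. The higher mean of Irs2 thus rested on 1 mouse, whereas that of Irs1 was seen in all 3.

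Gab1, a docking protein that recruits phosphatidylinositol 3-kinase and the phosphatase SHP2 (Ptpn11), is on the minus strand of chromosome 8 (chr8:80764438-80880519). It was at 37, 41.5 and 42.8 CPM in the mAktDKO mice and at 40.3, 35.7 and 35.9 CPM in the control mice. The groups overlapped, with means of 40.4 ± 3.02 and 37.3 ± 2.61 CPM (SD, n = 3 each) and a log2 fold change of 0.11 (SE 0.0928). This value was 0.06 without mAktDKO mouse 3, 0.17 without mAktDKO mouse 1, 0.17 without control mouse 2 and 0.25 with library totals.

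The start regions of Irs1 and Irs2 are shown because these 2 genes encode the paired substrates and share letters there. Start regions (250 bases before to 50 after the start, RefSeq, GRCm38.p6) were at hand for 7 of the 8 genes in 10 windows. GTAAACA, the only forkhead-type letters planned for the search, was in 0 of the 10 windows on either strand, and in 3.65% of 32851 windows of all genes. The 0 holds for these letters alone and not for other letters that forkhead factors may bind. After the windows had been read, CACGTG (an E-box) and CAAAACA (letters named for insulin response) were also searched on both strands. CACGTG was in 2 of the 10 windows, those of Irs1 and Irs2, and in 7.15% of all. CAAAACA was in 4 windows of 3 genes, Irs1, Irs2 and Gab1, and in 6.28% of all. The 2 windows of Gab1 overlap and hold the same match, which is counted once in each. CACGTG within 10 bases of CAAAACA was in 18 of 32851 windows (0.0548%), those of 15 genes including Irs1, Irs2 and their relative Irs4. This pairing and its limit of 10 bases were also added after the windows had been read. The share thus describes a pattern picked from these windows and is no measure of how unusual it is. The stretches of 60 bases around these letters, all on the minus strand and read 5′ to 3′, are chr1:82291520-82291579 for Irs1, chr8:11008937-11008996 for Irs2 and chrX:141725335-141725394 for Irs4. Capitals mark CACGTG and TGTTTTG, which is CAAAACA read on the other strand.
Irs1: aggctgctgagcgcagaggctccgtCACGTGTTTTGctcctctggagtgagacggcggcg
Irs2: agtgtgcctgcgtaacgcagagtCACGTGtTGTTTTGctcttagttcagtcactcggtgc
Irs4: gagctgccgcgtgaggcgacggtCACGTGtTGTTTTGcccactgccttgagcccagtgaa
In Irs1 the letters overlap by 2 bases, and in Irs2 and Irs4 they are 1 base apart. Irs2 and Irs4 share a run of 17 bases, gtCACGTGtTGTTTTGc, and the run shared by all 3 is 10 bases long. The letters end 105 bases before the RefSeq start in Irs1, 31 in Irs2 and 141 in Irs4. The whole window of Irs2 lies upstream of its 1 GENCODE transcript, which starts at chr8:11008458. By that start the letters of Irs2 lie farther away. Irs4 was at 0 counts in all 6 mice. Of the 7 tested genes among the 15, which include Irs1 and Irs2, 4 were higher and 3 lower by sign in the mAktDKO mice. A link of the letters with level or direction was not tested. A match describes the sequence and is not a binding site.

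Shc1, the adaptor that links the receptor to Grb2 and the Ras pathway, is on the plus strand of chromosome 3 (chr3:89418443-89430027). It was at 31.4, 33.0 and 27.4 CPM in the mAktDKO mice and at 22.2, 27.5 and 23.2 CPM in the control mice. The groups touched, since the lowest mAktDKO mouse (27.4) was just under the highest control mouse (27.5). The means were 30.6 ± 2.88 and 24.3 ± 2.80 CPM (SD, n = 3 each), a log2 fold change of 0.33 (SE 0.113). Without control mouse 2 it was 0.27 (SE 0.114).

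Grb10 and Grb14 are relatives that bind the active receptor and inhibit its kinase. Their fold changes had opposite signs, and Grb14 alone was called. Grb14, on the minus strand of chromosome 2 (chr2:64912476-65024987, 14 merged exons), was at 6.34, 5.63 and 6.72 CPM in the mAktDKO mice and at 18.0, 17.8 and 15.4 CPM in the control mice. These values rest on 100, 94 and 98 counts and on 257, 244 and 204 counts. All mAktDKO mice lay in a narrow band far below the control mice. The means were 6.23 ± 0.553 and 17.1 ± 1.42 CPM (SD, n = 3 each), so the control level was 2.74 times the mAktDKO level (log2 fold change -1.45, SE 0.122). Grb14 had the third smallest p of all genes tested in edgeR, after Akt2 and Aldh1a1. Its log2 fold change stayed between -1.53 and -1.39 when any 1 mouse was left out, but the call at 0.01 was lost without mAktDKO mouse 1 (-1.47), mAktDKO mouse 2 (-1.39), mAktDKO mouse 3 (-1.53) or control mouse 3 (-1.43). Without any 1 of the mAktDKO mice, edgeR called 0 genes of all tested, with 1871 to 2794 at an unadjusted p under 0.05.

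The 250 bases before the RefSeq start of Grb14 are shown because it was the 1 gene of the 8 past the threshold. They lie at chr2:65022767-65023016 on the minus strand of GRCm38.p6, and some transcripts of GENCODE start farther upstream. The stretch holds 24 CG pairs, in capitals, and 75.2% G or C. The whole window, which adds the first 50 bases after the start, holds 30 CG pairs. The windows of all genes have a median of 7 CG pairs and a median G and C content of 52.7%. Many CG pairs were not particular to Grb14. The windows held 47 in Ptpn1, 45 and 9 in Grb10, 41 in Irs2, 28 in Irs1, 26 and 28 in Gab1, and 13 and 4 in Shc1.
Grb14: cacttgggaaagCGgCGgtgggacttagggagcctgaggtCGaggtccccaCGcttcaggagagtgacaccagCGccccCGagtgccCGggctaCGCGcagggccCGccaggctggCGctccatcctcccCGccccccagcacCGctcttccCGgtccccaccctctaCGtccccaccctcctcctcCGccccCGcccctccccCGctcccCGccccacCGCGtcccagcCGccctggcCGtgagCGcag

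Grb10, an imprinted gene on the minus strand of chromosome 11 (chr11:11930508-12038683, 22 merged exons) whose protein is stabilised by mTORC1, was at 150, 155 and 145 CPM in the mAktDKO mice. In the control mice it was at 94.9, 139 and 129 CPM. The groups did not overlap, but control mouse 2 lay far below the other 5 mice. The means were 150 ± 5.20 and 121 ± 23.0 CPM (SD, n = 3 each), a 1.24-fold difference (log2 fold change 0.31, SE 0.131). Leaving out control mouse 2 gave a log2 fold change of 0.16 (SE 0.0787), so the size of the difference in Grb10 depended on that mouse.

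The balance of the paired inhibitors was also read within each mouse, as a ratio of counts that needs no scaling between mice. The counts of Grb10 were 23.6, 27.5 and 21.5 times those of Grb14 in the mAktDKO mice and 5.28, 7.78 and 8.36 times in the control mice. The groups were far apart, with mean log2 ratios of 4.59 ± 0.18 and 2.81 ± 0.36 (SD, n = 3 each), a 3.44-fold difference. This ratio reuses the values of Grb14 (log2 fold change -1.45) and Grb10 (0.31) and is not separate support for either. Most of it is the difference in Grb14, and the part from Grb10 depended on control mouse 2. Per kb of merged exons, Grb14 made up 5.08%, 4.39% and 5.55% of the sum of both genes in the mAktDKO mice and 19.3%, 14% and 13.1% in the control mice. The sum itself was 17.4 ± 0.497 and 15.7 ± 2.46 CPM per kb (SD, n = 3 each), with overlapping ranges. The share of Grb14 was thus lower while the pooled level of both inhibitors overlapped between the groups.

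For the paired substrates, the counts of Irs1 were 9.28, 11 and 5.33 times those of Irs2 in the mAktDKO mice and 5.21, 6.13 and 9.32 times in the control mice, and the groups overlapped. The sum of Irs1 and Irs2 per kb was 60.2, 73.5 and 66.9 CPM per kb in the mAktDKO mice and 35.8, 46.3 and 49.9 CPM per kb in the control mice. The sums did not overlap, with means of 66.9 ± 6.65 and 44.0 ± 7.34 CPM per kb (SD, n = 3 each). Irs2 made up 15.5% of the sum in the mAktDKO and 18.1% in the control mice on average, so the sum mostly repeats Irs1. Relative to the receptor, the counts of Irs1 were 2.90, 3.20 and 2.38 times those of Insr in the mAktDKO mice and 1.40, 2.11 and 2.35 times in the control mice. These ranges came close to each other but did not overlap. Control mouse 2 was the lowest in both the sum and this ratio. Of single genes tested, 31.1% did not overlap.

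**Figure D3:**
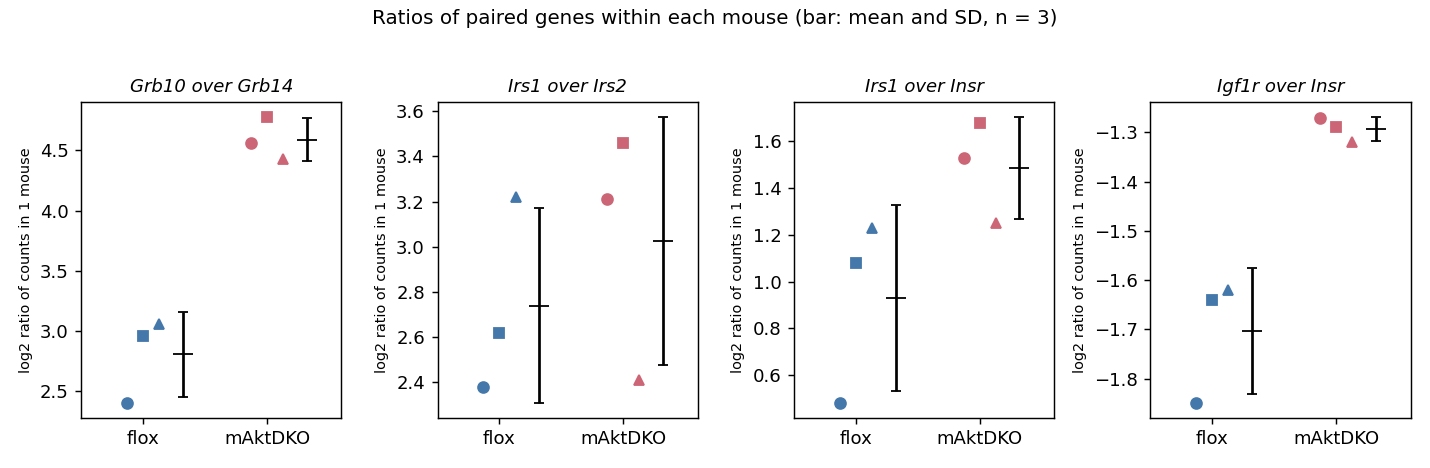
Log2 ratio of the counts of 2 genes within each mouse (y axis, not from 0) in control floxed (flox, blue) and mAktDKO mice (red), 1 point per mouse, with the mean and SD. Grb10 over Grb14 lies at 4.43 to 4.78 in the mAktDKO mice and 2.40 to 3.06 in the control mice, Irs1 over Irs2 overlaps, and Irs1 over Insr and Igf1r over Insr are higher in every mAktDKO mouse.

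Ptpn1, the gene of PTP1B, the phosphatase that dephosphorylates the receptor, is on the plus strand of chromosome 2 (chr2:167932057-167979385). It was at 19.5, 19.9 and 23.6 CPM in the mAktDKO mice and at 22.4, 21.5 and 20.6 CPM in the control mice. The groups overlapped, with means of 21.0 ± 2.25 and 21.5 ± 0.904 CPM (SD, n = 3 each). The log2 fold change was -0.03 (SE 0.104), and it was -0.14 without mAktDKO mouse 3 and -0.0055 without control mouse 2. Its sign turned with library totals as scaling and without mAktDKO mouse 1 or 2.

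To compare levels between genes, CPM was divided by the length of the merged exons. In the control mice the order of the levels was Irs1 (36.2 ± 7.68 CPM per kb, SD, n = 3), Grb10 (13.3), Insr (12.5), Irs2 (7.78), Gab1 (7.35), Shc1 (4.31), Ptpn1 (3.88) and Grb14 (2.37 ± 0.198). Neighbours whose ranges over the control mice overlapped were Grb10 and Insr, Irs2 and Gab1, and Shc1 and Ptpn1. With this length the order was the same in the mAktDKO mice, where Grb14 was at 0.867 ± 0.0769 CPM per kb (SD, n = 3). The length used decides much of this order. With the median transcript length, the levels in the control mice ran Grb10, Insr, Irs1, Ptpn1, Grb14, Shc1, Irs2 and Gab1. In the mAktDKO mice this length put Grb14 last by its mean, but its values (7.46 to 8.90 CPM per kb) overlapped those of Gab1 (7.60 to 8.79). Irs1 and Irs2 have 1 transcript each, so the higher level of Irs1 than of Irs2 did not depend on it.

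**Figure D4:**
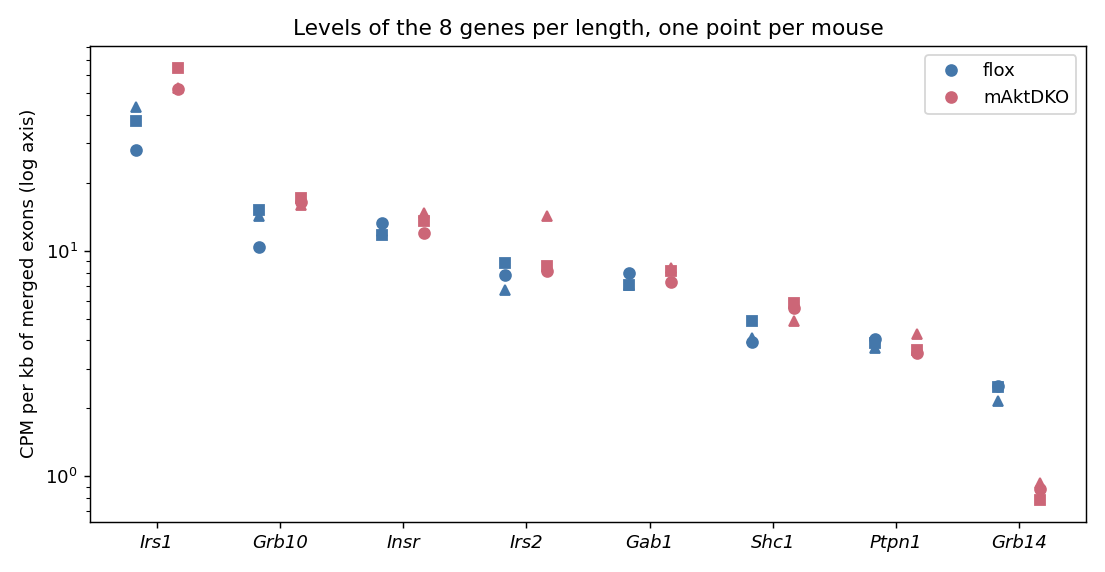
Level of each gene in CPM per kb of merged exons (y axis, log scale) in 3 control floxed (flox, blue) and 3 mAktDKO mice (red), 1 point per mouse, ordered by the mean of the control mice. Irs1 is at the top with 28.0 to 43.2 in the control mice, and Grb14 at the bottom with 2.15 to 2.50 in the control and 0.784 to 0.935 in the mAktDKO mice.

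The genes whose pattern over the 6 mice was most like that of Grb14 were found by the root mean square difference of centred log2 CPM. They were Aldh1a1, an aldehyde dehydrogenase that makes retinoic acid (difference 0.10, Pearson's r 0.997), and Akt2 itself (0.13, r 0.987). Next came Nt5c1a, a nucleotidase that acts on AMP (0.17, r 0.982), Inpp5j, a phosphatase of phosphoinositides (0.17, r 0.974), and 0610040J01Rik (0.20, r 0.966). Their log2 fold changes were between -1.55 and -1.20. The likeness is a description over 6 mice that share the split between the groups and the libraries.

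The other genes of receptor-proximal signalling were taken from a list of 57, of which 52 were tested. By sign, 31 were higher and 21 lower in the mAktDKO mice. Their median log2 fold change was 0.07, against 0.02 over all genes tested. In edgeR, 0 of the 52 were called at an adjusted p under 0.01, 1 at under 0.05 (background 1.18%), and 10 had an unadjusted p under 0.05 (background 24.5%). DESeq2 called 1 at 0.01 (background 3.09% of 10625 genes), and this was the same gene, Igf1r. The groups did not overlap in 13 of the 52, against 31.1% of all genes.

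Igf1r, the receptor of insulin-like growth factor 1 and the closest relative of Insr, was at 68.4, 75.8 and 81.0 CPM in the mAktDKO mice and at 50.8, 52.3 and 54.7 CPM in the control mice. It rose in the mAktDKO mice at the 0.05 threshold, from 52.6 to 75.1 CPM on average (log2 fold change 0.51, SE 0.087, adjusted p = 0.0422 in edgeR's quasi-likelihood test). With 1 mouse left out, its log2 fold change was between 0.44 and 0.58 and its adjusted p in edgeR between 0.0423 and 0.22, and the call at 0.05 was lost without mAktDKO mouse 1, 2 or 3 or control mouse 3. Within a mouse, the counts of Igf1r were 0.416, 0.409 and 0.400 times those of Insr in the mAktDKO mice and 0.277, 0.322 and 0.326 times in the control mice. The ratios did not overlap between the groups, while the levels of Insr did.

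Among 9 other docking proteins, 7 were higher and 2 lower, and none passed the test. The smallest p-values in edgeR were those of Gab2 (log2 fold change 0.27, adjusted p = 0.14), Frs2 (0.12, adjusted p = 0.506) and Dok5 (-0.21, adjusted p = 0.522). Among 15 other adaptors and exchange factors, 6 were higher and 9 lower, within -0.23 and 0.19. Their smallest edgeR p-values were those of Sh2b3 (0.19, adjusted p = 0.272), Gigyf1 (-0.23, adjusted p = 0.34) and Gigyf2 (0.10, adjusted p = 0.448). The last pair bind Grb10. Among 8 other phosphatases, 7 were higher and 1 lower, with a median of 0.26, and none passed. The lower gene was Ptpn11, the SHP2 phosphatase that Gab1 recruits, at 142, 144 and 143 CPM in mAktDKO against 197, 170 and 173 CPM in control mice (-0.33, adjusted p = 0.0713 in edgeR). Ptpra (0.27, adjusted p = 0.126 in edgeR) and the leukocyte phosphatase Ptpn6 (0.67, adjusted p = 0.211 in edgeR) followed. Among 19 inhibitors, feedback kinases and degradation factors, 10 were higher and 9 lower, with a median of 0.00. Their smallest edgeR p-values were those of Trim72, a muscle ubiquitin ligase of Irs1 (-0.33, adjusted p = 0.0949), Socs7 (-0.29, adjusted p = 0.0955) and Enpp1, an inhibitor of the receptor (0.39, adjusted p = 0.126).

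Markers of other cells were mostly higher by sign in the mAktDKO mice, but the sums of the 4 lists that follow overlapped between the groups, and none of their genes passed an adjusted p under 0.05 in edgeR. All 5 adipocyte markers were higher, with a sum of 135, 157 and 51.8 CPM in mAktDKO against 52, 40.6 and 88.3 CPM in control mice. All 5 fibro-adipogenic markers were higher, with a sum of 18280 to 21736 CPM in the mAktDKO mice and 7284 to 18401 CPM in the control mice. The lowest was control mouse 2, which was also lowest for Irs1, Grb10, Shc1 and the macrophage and leukocyte sum. Most of the fibro-adipogenic sum is collagen Col1a1. All 5 macrophage and leukocyte markers were higher (59.9 to 71.5 against 43.1 to 60 CPM), as were 5 of 6 slow fibre markers (644 to 1257 against 569 to 829 CPM). The median log2 fold changes of these 4 lists were 0.46 to 1.04. They were smaller in the lists not detailed, at 0.05 for endothelial, 0.08 for smooth muscle and pericyte, 0.15 for satellite cell and 0.26 for Schwann cell markers. The sums of those lists also overlapped between the groups. All 9 fibre markers were lower by sign (221721 to 274221 against 277647 to 299685 CPM), at a median of -0.22 on the log2 scale, and their sums did not overlap. Of these, Mb, the gene of the oxygen store myoglobin, fell at the 0.05 threshold, with 811, 769 and 895 CPM in mAktDKO against 2821, 1783 and 1756 CPM in control mice (log2 fold change -1.36, SE 0.181, adjusted p = 0.0206 in edgeR). Tnni2, fast troponin I, was at a log2 fold change of -0.59 (adjusted p = 0.0557 in edgeR), and the myosin gene Myh1 at -0.51 (adjusted p = 0.0539 in edgeR). The myosin gene Myh4 was at -0.02 (SE 0.124, adjusted p = 0.944 in edgeR), and its groups overlapped. Counted gene by gene, the groups did not overlap for 6 of 9 fibre, 2 of 5 fibro-adipogenic (Pdgfra and Dcn), 3 of 5 macrophage and leukocyte (Adgre1, Ptprc and Cd68), 0 of 5 adipocyte and 0 of 6 slow fibre markers, against 31.1% of all genes. No marker of these lists was at 0 and none was called at 0.01 in edgeR. Their part in the values of Irs1, Grb10 and Grb14 was not tested.

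Some counts could be shared between overlapping genes. Exons of Irs1 overlap those of Gm9747 on the other strand by 2822 bases, those of Gab1 overlap Gm31105 by 266 bases, and those of Irs2 overlap 9530052E02Rik by 162 bases. The libraries keep the strand, but the strand setting of the counting is not given in the sources used here. Exons of Insr, Shc1, Grb10, Grb14 and Ptpn1 overlap those of no other gene in the annotation.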

How the data were processed

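EDL RNA of 3 mAktDKO and 3 control mice was sequenced by the authors as directional libraries depleted of rRNA. Per the labels, reads were mapped to mm10 with STAR (2.6.1b in the submitters' processing notes, another version in the methods) and counted with RSEM 1.3.1. The deposited values are the expected counts made by the authors, not scaled between mice, of which 3.36% to 4.09% in a mouse were not whole. Control columns carry the numbers 2 to 4 and the labelled samples 1 to 3, so control mice were matched to the group only.

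Rounded counts were analysed with edgeR 4.0.16 in R 4.3.3: low counts were removed by filterByExpr with a minimum of 10, libraries were scaled by TMM, and the quasi-likelihood test was run. A gene was called when its p, adjusted by Benjamini-Hochberg over all 12892 genes, was under 0.01. The log2 CPM used a prior count of 2. The SE is the log2 fold change divided by the square root of F. Lengths and coordinates are from GENCODE vM21. The genes and lists were chosen with earlier results of these data known. Named genes were all 8, Akt1 and Akt2, the 3 smallest p-values of each role in the wider list, and the 5 genes most like Grb14. Irs4 and the markers Mb, Tnni2, Myh1, Myh4, Col1a1, Pdgfra, Dcn, Adgre1, Ptprc and Cd68 were singled out after their values or sequence were seen. The alternatives were other scalings, DESeq2 1.42.0, other filters and thresholds, robust estimation, another length, and leaving out each mouse. The steps were tested on simulated data. There edgeR recovered fewer of the changed genes than a first limit asked, and that limit was then replaced by checks of the fold size, the sign and the share of false calls.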

Additional observations from a re-analysis of the deposited data

How the results depend on the processing

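No paired analysis was possible because columns of control mice could not be tied to single labelled samples, and the labels name no litter or batch. Genes called numbered 328 with DESeq2, 32 of 17360 without the filter on low counts, 152 at an adjusted p under 0.05, 18 with robust estimation, and 0 to 8 without 1 mouse. DESeq2 called 341 with its filter tuned to 0.01 and 257 with no filter on the mean. These 2 settings were added after seeing the data, and the package default was kept as the DESeq2 alternative after all 3 counts were seen. Of the 8 genes, 2 were called by DESeq2 in each of these settings (Irs1, log2 fold change 0.634, and Grb14), 0 to 1 without 1 mouse, and 3 if groups that do not overlap are counted, which was also added. Of the wider list, DESeq2 called 1 in each setting, edgeR 1 at 0.05 (Igf1r), and edgeR 0 at 0.01 both with all mice and without any 1 mouse. Reading Igf1r at 0.05 with 1 mouse left out was added after seeing the data. It was at 0.575, 0.505 and 0.439 without mAktDKO mouse 1, 2 and 3 and at 0.507 without control mouse 3, where its call was lost. CACGTG was found for 2 and CAAAACA for 3 of the 7 genes with a start region (7.15% and 6.28% of the windows of all genes). Ptpn1 turned to 0.101 with library totals, a setting that moves the median of all genes from 0.02 to 0.16 (log2), to 0.0169 without mAktDKO mouse 1 and to 0.00176 without mAktDKO mouse 2, in a range of -0.14 to 0.0169 without 1 mouse. Grb14 was between -1.46 and -1.32 in the other settings planned. The other 7 genes were not called by edgeR at 0.01 in any setting run, but the adjusted p of Irs1 in edgeR was under 0.05 without the filter on low counts (0.0477) and without control mouse 4 (0.0443), against 0.0691 with the filter and all mice, and up to 0.268 over all settings run. The cause of these differences was not tested. The values of Grb14 in the mAktDKO mice rest on 94 to 100 counts. The shares of the error that come from counting and from the spread between mice were not separated.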
